A study of Mus musculus with 6 samples.

Results

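Mitosis is driven by a set of genes that most cell types use only while they divide, and the 46 described here are part of that set. They were taken from a list of 47 names, of which Cdc2a is an older name of Cdk1, and a probe set belonged to the set where its only gene symbol in the authors' annotation was one of those names. This gave 103 of the 45037 probe sets tested, and 46 of the 20967 genes with a probe set of their own. The genes were measured in bone marrow-derived macrophages (BMDM) of 2 miR-155 KO mice (B6.Cg-Mir155tm1.1Rsky/J on the C57BL/6J background), grown for a week with L929 supernatant as the source of macrophage colony stimulating factor (M-CSF) and then replated without it. For 24 hours the cells received LPS and IFN-γ (20 ng/ml), called KO M1, or IL-4 (20 ng/ml), called KO M2, or media alone, called KO M0. LPS is given as 100 ng/ml in the sample labels and at another concentration in the study's methods. Each mouse gave 1 Affymetrix mouse genome array per condition, 6 arrays in all. Every group thus lacked miR-155 and none had M-CSF from L929 supernatant during stimulation. Arrays of WT macrophages were not analysed here, so no value below speaks to an effect of the deletion, and the sources used here do not give the age of the mice.

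Entry into mitosis requires CDK1 bound to a cyclin of the A or B type, after which polo-like and Aurora kinases, the condensins, the spindle motors and the kinetochore proteins act in turn until the anaphase-promoting complex (APC/C) degrades the cyclins and the cell splits. Most of these genes are transcribed in the G2 phase and mitosis and are switched off in resting cells. Their promoters are known for the cell cycle genes homology region (CHR), which binds the DREAM and MuvB complexes, and for the CCAAT box, which binds NF-Y. Bone marrow macrophages divide in response to M-CSF, and mature macrophages out of that growth factor, or under inflammatory stimuli, are known to slow or stop their division.

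The promoters of the 6 members with the largest fall in KO M1 among those with a promoter sequence are printed first, as examples of the promoters whose letters are counted over the set in the next paragraph. Each stretch runs from 150 bases before the gene start, as placed in the next paragraph, to 50 bases from it on. It reads 5′ to 3′ on the gene's own strand, in the RefSeq sequence of GRCm38.p6. Capitals mark a CHR (TTTGAA or TTTAAA, or TTCAAA where it lies on the other strand) or a CCAAT box (ATTGG on the other strand). Ccnb2 lies at chr9:70421505-70421704, minus strand, Ube2c at chr2:164769779-164769978, plus strand, and Birc5 at chr11:117849087-117849286, plus strand. Cdca3 lies at chr6:124830026-124830225, plus strand, Anln at chr9:22389157-22389356, minus strand, and Cenpf at chr1:189688037-189688236, minus strand.
Ccnb2: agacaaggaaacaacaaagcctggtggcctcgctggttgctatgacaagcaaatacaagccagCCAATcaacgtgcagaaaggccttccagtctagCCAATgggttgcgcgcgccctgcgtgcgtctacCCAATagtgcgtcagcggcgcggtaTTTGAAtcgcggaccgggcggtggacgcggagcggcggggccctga
Ube2c: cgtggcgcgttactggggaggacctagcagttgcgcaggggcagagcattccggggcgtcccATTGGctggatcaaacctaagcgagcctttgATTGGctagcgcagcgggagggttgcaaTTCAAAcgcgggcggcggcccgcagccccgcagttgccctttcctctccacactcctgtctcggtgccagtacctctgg
Birc5: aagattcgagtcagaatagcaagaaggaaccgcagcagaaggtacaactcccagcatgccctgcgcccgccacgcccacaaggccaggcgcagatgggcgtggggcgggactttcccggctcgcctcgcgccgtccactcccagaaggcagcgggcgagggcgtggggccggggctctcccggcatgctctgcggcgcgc
Cdca3: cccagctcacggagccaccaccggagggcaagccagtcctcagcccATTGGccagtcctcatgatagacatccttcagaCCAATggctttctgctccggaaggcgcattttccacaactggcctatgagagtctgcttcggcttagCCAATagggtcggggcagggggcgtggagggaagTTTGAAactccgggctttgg
Anln: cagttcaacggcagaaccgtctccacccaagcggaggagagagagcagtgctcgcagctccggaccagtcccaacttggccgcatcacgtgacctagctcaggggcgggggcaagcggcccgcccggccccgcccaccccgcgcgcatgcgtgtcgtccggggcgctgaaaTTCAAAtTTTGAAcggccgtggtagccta
Cenpf: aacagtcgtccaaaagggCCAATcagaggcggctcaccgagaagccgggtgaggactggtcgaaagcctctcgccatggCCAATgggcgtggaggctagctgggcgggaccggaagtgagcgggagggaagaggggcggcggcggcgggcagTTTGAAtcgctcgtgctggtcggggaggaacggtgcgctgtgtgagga
Ccnb2, Cdca3 and Cenpf hold a CHR just after the start and CCAAT boxes upstream of it. Anln holds a pair of CHR motifs and no CCAAT box, and the printed stretch of Birc5 holds neither.

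A promoter window of 300 bases (250 before the start and 50 from it on) was at hand for 38 of the 46 genes, 1 of them (Sgol1) through its current name Sgo1, and 2 genes had more than 1 window. Ccna2, Cdc25c, Pbk, Aurkb, Incenp, Kif20a, Tpx2 and Smc4 had none. The motifs were searched as letters on both strands. TTTGAA stood in the windows of 27 of the 38 genes (71.1%, 95% Wilson interval 55.2 to 83.0%), against 20.2% of all 27025 genes with a window and 18.5% of the 17492 protein-coding ones. CCAAT stood in 29 of 38 (76.3%, interval 60.8 to 87.0%), against 41.1% of all genes. The other form of the CHR, TTTAAA, stood in 9 of 38 (23.7%, interval 13.0 to 39.2%), against 14.9% of all genes, whose share lies inside that interval. The E2F-type letters TTTNNCGC stood in 3 of 38 (7.89%, interval 2.72 to 20.8%), against 5.93%, so the members' share was not told apart from the share over all genes. TTTAAA reads the same on both strands and was counted once, while the letters of the 4 motifs can overlap one another.

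The next counts were chosen after the positions had been seen. A CHR of either form lay within 50 bases of the start in 27 of the 38 genes (71.1%), against 9.54% of all genes. A CHR and a CCAAT box stood together in 26 of 38 (68.4%, against 12.2% of all genes), and 19 of 38 held 2 or more CCAAT boxes (50%, against 13.3%), with 6 at most in 1 window. Melk, Mad2l1, Nuf2, Nusap1 and Ncaph held none of the 4 motifs. The fall in KO M1 described below was also read by these letters, without a test. The median log2 change was -2.19 in the 26 genes with both elements (range -4.41 to -1.47) and -2.38 in the 12 others with a window (range -4.07 to -0.49). A match describes the letters in these windows, not binding of a factor.

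**Figure D1:**
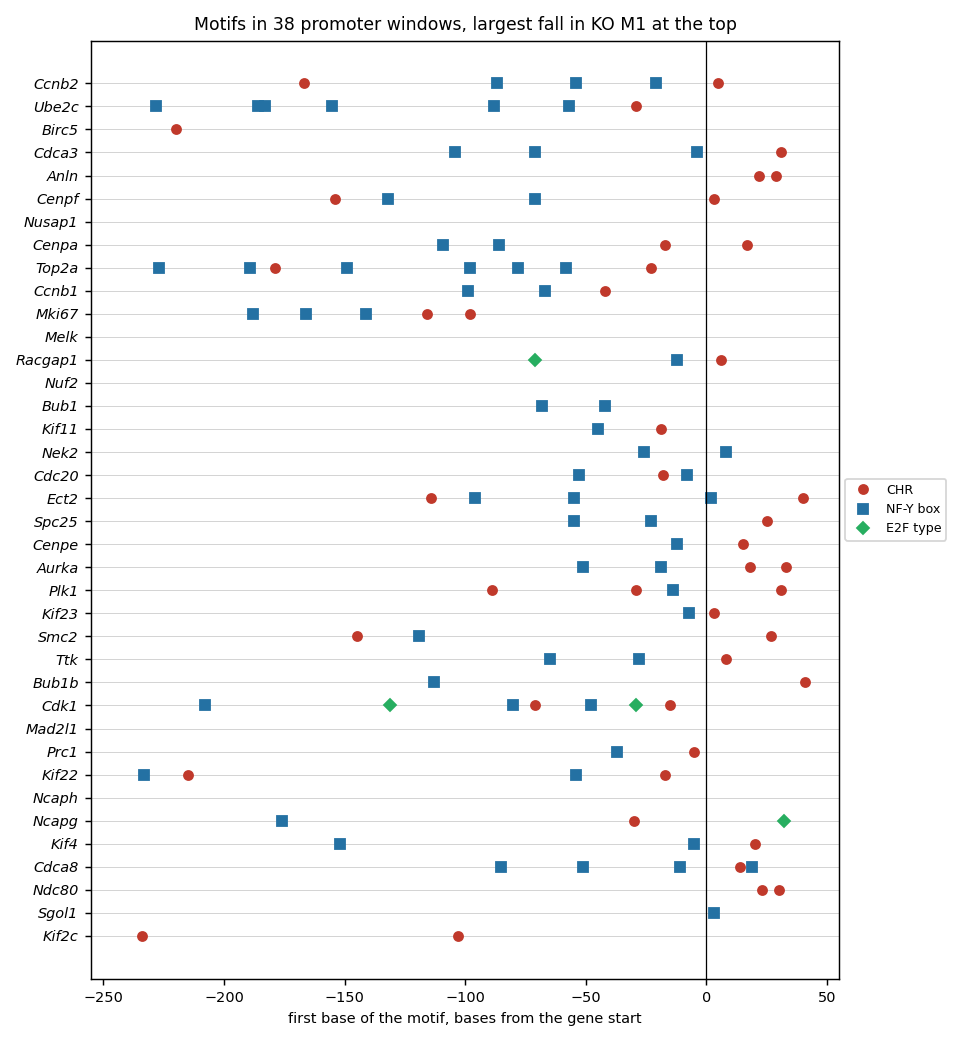
The plot shows the place of each motif match in the first promoter window of 38 mitosis genes, as the distance in bases of the match's first base from the gene start (0 line), with genes ordered from the largest fall in KO M1 at the top. Circles (CHR, TTTGAA or TTTAAA) gather within 50 bases of the start in 27 genes, squares (CCAAT boxes) lie mostly upstream of them, and diamonds (E2F-type letters) stand in 3 genes.

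Intensities are the deposited RMA values per probe set on a linear scale, given for mouse 1 and then mouse 2, as the titles number the arrays. RMA corrects the background, gives the probes of all arrays the same distribution and summarises the probes of a probe set. A gene is shown at the probe set with the highest mean log2 over the arrays (its brightest), and levels of different genes are not set against each other, since probe sets differ in sensitivity. The table has no detection calls, so the median of an array (38.01 to 40.82) serves as a mark below which a value is called dim. The probe set annotated to Mir155 was dim on all 6 arrays (10.5 and 9.42 in KO M1, 9.33 and 10.1 in KO M2, 10.8 and 9.94 in KO M0), and its place relative to the deletion is not stated in the sources used here.

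After LPS and IFN-γ nearly the whole set fell. In KO M1 against KO M0, 44 of the 46 genes were lower at an adjusted p under 0.05 in limma and 0 were higher, where 4.49% of all 20967 genes were lower and 3.79% higher. The fall was at least 2-fold in 42 of the 44. The median log2 change was -2.24 over the 46 genes and 0.05 over all genes. Both KO M1 arrays lay under both KO M0 arrays for 46 of 46 genes, which was so for 20.3% of all genes. It follows from this that each of the 46 was lower in KO M1 within mouse 1 and within mouse 2. At the level of probe sets, 75 of 103 were lower (4.32% of all probe sets were lower) and 0 were higher (2.76% of all). At an unadjusted p under 0.05, 82 were lower (10.5% of all) and 1 was higher (9.84% of all). Of the 20 probe sets with the largest fall among all those called lower, 8 belonged to members, and of the 100 with the largest fall, 25. A gene with several probe sets can count more than once there. Among all 1945 probe sets called lower, 75 belonged to members. The members were chosen with earlier results of these data known, so these ranks are not independent support. The array of a well mixes all of its cells, so fewer dividing cells and less of these transcripts per cell cannot be told apart.

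**Figure D2:**
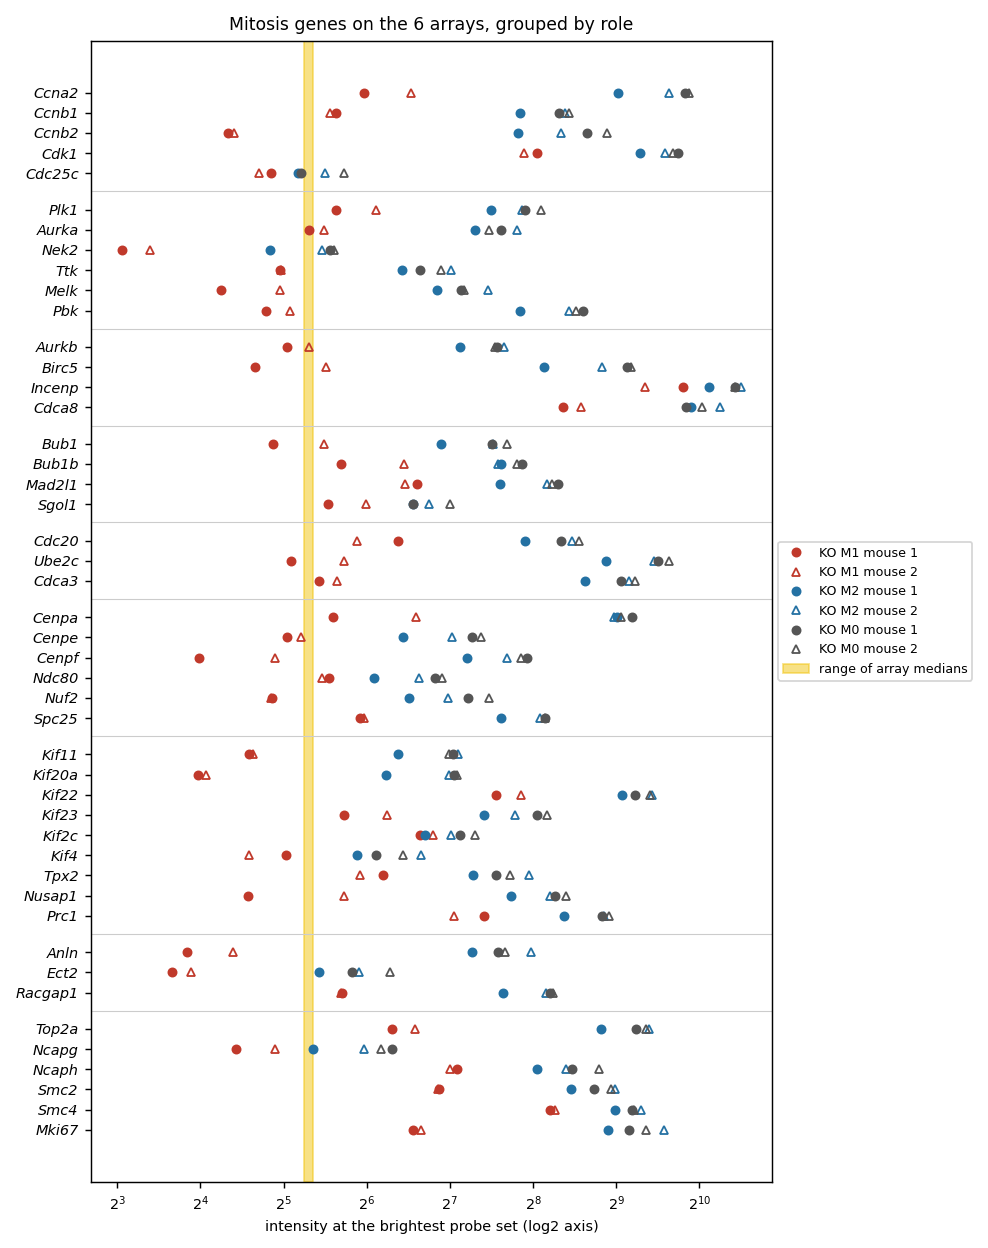
The plot shows the intensity (log2 axis) of each of the 46 mitosis genes at its brightest probe set on the 6 arrays, grouped by role from cyclins at the top to chromosome structure at the bottom, with filled circles for mouse 1 and open triangles for mouse 2. The KO M1 points (red) lie left of both KO M0 points (grey) in all 46 genes, while the KO M2 points (blue) lie near KO M0, and the shaded band is the range of the array medians (38.01 to 40.82).

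The order of the roles by median log2 change in KO M1 ran from the APC/C partners (-3.61) through the cyclins and their kinase (-2.77), cytokinesis (-2.53), the centromere and kinetochore (-2.34), the mitotic kinases (-2.25), the passenger complex (-1.93), condensation (-1.78) and the checkpoint (-1.75) to the kinesins and spindle assembly (-1.64). The groups held 3 to 9 genes, their ranges overlapped, and differences between them were not tested. The APC/C partners were 3 genes, and their median is the value of Cdca3, a target of the APC/C.

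The cyclins and their kinase set the time of mitotic entry, and 4 of their 5 genes fell in KO M1. Ccnb2, a B-type cyclin, had intensities of 20.1 and 21.1 in KO M1, 225 and 324 in KO M2, and 402 and 474 in KO M0. It was 21.2 times lower in KO M1 than with media alone, the largest fall of the 46, at a log2 change of -4.41 (SE 0.18, limma adjusted p = 2.1e-05), and both KO M1 arrays were dim. Ccna2, the cyclin of S phase and early mitosis, had 62.5 and 92.7 in KO M1, 519.7 and 797 in KO M2, and 909.8 and 937 in KO M0, a log2 change in KO M1 of -3.60 (SE 0.23, adjusted p = 0.00011). Ccnb1, the other main B-type cyclin, had 49.6 and 47.1 in KO M1, 230.3 and 334 in KO M2, and 317 and 344 in KO M0, with a change of -2.77 in KO M1. Of its 4 probe sets 3 fell, by as much as -3.80 at the probe set with 14.2 and 18.3 on the KO M1 arrays, against 206 and 244 on the KO M0 arrays, and the last was dim on every array (7.88 and 7.47 in KO M1, 7.61 and 7.46 in KO M2, and 9.09 and 8.70 in KO M0). Cdk1, the kinase that these cyclins activate, fell less. Its intensities were 264 and 238 in KO M1, 625 and 768 in KO M2, and 861 and 822 in KO M0, and its change was -1.75 (adjusted p = 0.00025). Cdc25c, the phosphatase that activates CDK1, did not pass at its brightest probe set (28.7 and 26.0 in KO M1, 36.0 and 45.3 in KO M2, and 36.9 and 53.0 in KO M0, a change in KO M1 of -0.69, adjusted p = 0.072), although all of its KO M1 values lay under the KO M0 ones. Its other probe set was lower in KO M1 (18.2 and 20.1 on the KO M1 arrays, against 39.9 and 33.6 on the KO M0 arrays, -0.94, adjusted p = 0.0054).

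All 6 mitotic kinases fell in KO M1. Pbk, a MAP kinase kinase-like kinase of dividing cells, had 27.7 and 33.9 in KO M1, 229 and 344 in KO M2, and 387 and 367 in KO M0, and was 12.3 times lower in KO M1 than with media alone (log2 -3.62, SE 0.20, limma adjusted p = 5.6e-05). Melk, a kinase of proliferating and progenitor cells, had 18.9 and 31.1 in KO M1, 115 and 176 in KO M2, and 140.3 and 143 in KO M0, a change in KO M1 of -2.55 (SE 0.26, adjusted p = 0.00074). KO M1 was apart from both other conditions in each of these genes, and the 2 KO M1 arrays of Melk also differed from each other. Nek2, a kinase of centrosome separation, was dim in KO M1 and close to the array median in KO M0, with 8.33 and 10.5 in KO M1, 28.6 and 44.1 in KO M2, and 47.1 and 48.8 in KO M0. Of its 3 probe sets 2 fell, and the other was dim throughout (11.0 and 13.0 in KO M1, 12.6 and 11.0 in KO M2, and 11.9 and 12.8 in KO M0). Plk1, the polo-like kinase of mitotic entry, had 49.5 and 69.0 in KO M1, 180 and 233 in KO M2, and 240.1 and 273 in KO M0 (-2.13 in KO M1). Aurka, the Aurora kinase of the centrosome and spindle, had 39.7 and 44.9 in KO M1, 158 and 224 in KO M2, and 196 and 178 in KO M0 (-2.15). Ttk, a kinase of the spindle checkpoint, had 31.1 and 31.4 in KO M1, 85.8 and 129 in KO M2, and 100.1 and 119 in KO M0 (-1.80). Aurka and Ttk each had a further probe set that was dim on every array and was not called (13.7 and 13.5 on the KO M1 arrays, against 16.2 and 15 on the KO M0 arrays for Aurka). That of Ttk had 13.4 and 15.4 on the KO M1 arrays, against 13.6 and 14.3 on the KO M0 arrays.

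The chromosomal passenger complex, which corrects faulty attachments of chromosomes and later directs the cleavage furrow, fell in all 4 subunits, by very different amounts. Birc5 (survivin) had 25.1 and 45.5 in KO M1, 281 and 454 in KO M2, and 559 and 578 in KO M0, 16.8 times lower in KO M1 than with media alone (log2 -4.07, SE 0.29, limma adjusted p = 0.00015). Aurkb, the complex's kinase, had 32.8 and 39.7 in KO M1, 139.5 and 201 in KO M2, and 189 and 187 in KO M0, with a change in KO M1 of -2.38 (SE 0.18, adjusted p = 0.00022). Cdca8 (borealin) had 329 and 382 in KO M1, 958 and 1221 in KO M2, and 919.8 and 1048 in KO M0, and fell in KO M1 by 1.47 on the log2 scale, with all 3 of its probe sets lower. Incenp, the scaffold, had the smallest fall, with 892 and 652 in KO M1, 1111 and 1449 in KO M2, and 1380 and 1374 in KO M0 and a change in KO M1 of -0.85 (adjusted p = 0.028). With the mouse as a replicate block the adjusted p of Incenp was 0.056, and it did not pass without either KO M0 array or without KO M1 mouse 2 (adjusted p up to 0.17). Of its 4 probe sets, the next was also lower (246 and 248 on the KO M1 arrays, against 341 and 391 on the KO M0 arrays), another did not pass (148 and 137 on the KO M1 arrays, against 226 and 224 on the KO M0 arrays, -0.66, adjusted p = 0.099), and the last was near the array median (37.2 and 38.7 on the KO M1 arrays, against 35.7 and 37.6 on the KO M0 arrays).

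The genes of the spindle checkpoint hold back anaphase until all chromosomes are attached, and all 4 fell. Bub1, a checkpoint kinase at kinetochores, had 29.4 and 44.8 in KO M1, 119 and 184 in KO M2, and 182 and 205 in KO M0 (log2 change in KO M1 -2.41, SE 0.24, limma adjusted p = 0.00078). Bub1b (BubR1) had 51.6 and 87.1 in KO M1, 196 and 192 in KO M2, and 233 and 224 in KO M0 (-1.77, SE 0.22, adjusted p = 0.0019). Each had 1 probe set that did not pass, 7.06 and 7.58 on the KO M1 arrays, against 10.1 and 9.75 on the KO M0 arrays for that of Bub1. That of Bub1b read 35.7 and 47.9 on the KO M1 arrays, against 36.8 and 43.8 on the KO M0 arrays. Mad2l1, which with BubR1 inhibits CDC20, had 97.0 and 87.7 in KO M1, 194 and 287 in KO M2, and 314 and 299 in KO M0 (-1.73 in KO M1). Sgol1, the shugoshin that protects cohesion at centromeres, had 46.1 and 63.6 in KO M1, 94.5 and 107 in KO M2, and 94.0 and 128 in KO M0 (-1.02, adjusted p = 0.018), a smaller fall that did not pass without KO M0 mouse 2 (adjusted p = 0.15) or without KO M1 mouse 1 (adjusted p = 0.064).

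The exit from mitosis runs through the APC/C, and all 3 genes of its activator and partners, a target counted among them, fell. Ube2c, the E2 enzyme that passes ubiquitin to APC/C targets, had 34.1 and 53.1 in KO M1, 469 and 703 in KO M2, and 726 and 794 in KO M0. It was 17.9 times lower in KO M1 than with media alone (log2 -4.16, SE 0.24, limma adjusted p = 7.1e-05). Cdca3, a protein linked to mitotic entry and itself degraded through the APC/C, had 43.0 and 50 in KO M1, 394 and 569.6 in KO M2, and 535 and 598 in KO M0 (-3.61, SE 0.18, adjusted p = 4.2e-05). In both genes the KO M1 arrays were far below all 4 other arrays. Cdca3 had 2 further probe sets that were not called, with 37.3 and 43.5 on the KO M1 arrays, against 29.7 and 33.5 on the KO M0 arrays for the brighter of them. The dimmer read 7.52 and 8.04 on the KO M1 arrays, against 7.78 and 8.04 on the KO M0 arrays. Cdc20, which activates the APC/C at anaphase, had 83.1 and 59.1 in KO M1, 239 and 355 in KO M2, and 322 and 376 in KO M0 (-2.31). Its 3 probe sets all fell, with log2 changes of -0.72 to -3.54.

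The centromere and kinetochore tie chromosomes to the spindle, and all 6 genes fell. Cenpf, a large protein of the outer kinetochore, had 15.8 and 29.7 in KO M1, 148 and 206 in KO M2, and 243 and 231 in KO M0 (log2 change in KO M1 -3.45, SE 0.28, limma adjusted p = 0.00025). Cenpa, the histone H3 variant that marks the centromere, had 48.4 and 96.2 in KO M1, 515 and 505 in KO M2, and 583 and 535 in KO M0 (-3.03, SE 0.27, adjusted p = 4e-04). The KO M1 arrays of both genes differed nearly 2-fold between the mice and were still under every KO M2 and KO M0 array. Cenpf had 2 probe sets that were not called, 22.7 and 22.4 on the KO M1 arrays, against 37.2 and 31.7 on the KO M0 arrays for the first (-0.61, adjusted p = 0.051). The other read 22.2 and 19.4 on the KO M1 arrays, against 23.4 and 24.1 on the KO M0 arrays. Of the 3 probe sets of Cenpa the dimmest was not called (9.70 and 9.65 on the KO M1 arrays, against 10.3 and 9.37 on the KO M0 arrays). Cenpe, a kinetochore kinesin, had 33 and 37.0 in KO M1, 86.8 and 130.4 in KO M2, and 154 and 165 in KO M0 (-2.19), and its dim other probe set was over 2-fold apart between the mice in KO M2 (6.68 and 8.08 in KO M1, 7.24 and 17.4 in KO M2, and 28.2 and 19.8 in KO M0). Nuf2, Ndc80 and Spc25 are subunits of the NDC80 complex, which binds the microtubule end. Nuf2 had 29.0 and 28.8 in KO M1, 90.9 and 126 in KO M2, and 149 and 177 in KO M0 (-2.49). Spc25 had 60.7 and 62.4 in KO M1, 197 and 272 in KO M2, and 282 and 282 in KO M0 (-2.20), with another, dim probe set that was not called (29.9 and 30.7 on the KO M1 arrays, against 28.4 and 28.2 on the KO M0 arrays). Ndc80 itself fell least of the 6, with 46.8 and 44.0 in KO M1, 68.1 and 98.7 in KO M2, and 113 and 119.7 in KO M0 (-1.36).

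Motors and microtubule proteins build the spindle, and 8 of 9 fell at the brightest probe set. Nusap1, a nucleolar and spindle protein, had 23.7 and 53.0 in KO M1, 213 and 295 in KO M2, and 307 and 336 in KO M0 (log2 change in KO M1 -3.18, SE 0.33, limma adjusted p = 0.00082). Its KO M1 arrays were over 2-fold apart, which no other member was in any condition at its brightest probe set. Its 2 further probe sets were not called, with 12.9 and 12.7 on the KO M1 arrays, against 12.8 and 15.3 on the KO M0 arrays for the first. The other read 13.4 and 13.7 on the KO M1 arrays, against 12.1 and 10.8 on the KO M0 arrays. Kif20a, the kinesin that brings the passenger complex to the midzone, had 15.7 and 16.8 in KO M1, 75.1 and 127 in KO M2, and 132 and 136 in KO M0 (-3.05, SE 0.22, adjusted p = 0.00015). Kif11, the kinesin that pushes the spindle poles apart, had 23.9 and 24.9 in KO M1, 83.0 and 138 in KO M2, and 132 and 127 in KO M0 (-2.40), with 3 probe sets that all fell. Kif23, the kinesin of centralspindlin, had 52.9 and 75.8 in KO M1, 169.7 and 219.7 in KO M2, and 265 and 287 in KO M0 (-2.12). Of its 3 probe sets the one with 8.68 and 8.62 on the KO M1 arrays, against 10.7 and 7.12 on the KO M0 arrays was not called. Prc1, which crosslinks midzone microtubules, had 170.1 and 133 in KO M1, 331 and 461 in KO M2, and 456 and 482 in KO M0 (-1.64).

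Kif22, a chromosome-bound kinesin, had 187 and 232 in KO M1, 537 and 689 in KO M2, and 599.7 and 680 in KO M0 (log2 change in KO M1 -1.61). Tpx2, which activates Aurora A and seeds spindle microtubules, had 73.2 and 60.6 in KO M1, 155 and 247 in KO M2, and 188 and 211 in KO M0 (-1.58). Of its 4 probe sets 2 fell, while 64.7 and 80.6 on the KO M1 arrays, against 63.9 and 67.4 on the KO M0 arrays at another showed no fall, nor did 73.0 and 68.7 on the KO M1 arrays, against 74 and 74.3 on the KO M0 arrays at the last. Kif4, a kinesin of chromosome arms and midzone, had 32.6 and 23.9 in KO M1, 58.8 and 101 in KO M2, and 69.0 and 86.8 in KO M0 (-1.47, limma adjusted p = 0.011), and did not pass without either KO M0 array (adjusted p up to 0.11). Kif2c, a microtubule depolymerase at centromeres, was the exception at its brightest probe set, with 100.1 and 111 in KO M1, 104 and 129.7 in KO M2, and 139.6 and 158 in KO M0 (-0.49, adjusted p = 0.096). Probe sets of Kif2c disagreed in size. The one with 32.0 and 37.0 in KO M1, 105 and 167 in KO M2, and 139 and 156 in KO M0 changed by -2.10 (adjusted p = 0.00072), the one with 60.6 and 61.2 in KO M1, 89.2 and 138 in KO M2, and 132 and 146 in KO M0 by -1.19 (adjusted p = 0.0081), and the last was dim (27.1 and 18.7 on the KO M1 arrays, against 27.3 and 24.5 on the KO M0 arrays). The mark _x or _a in a probe set's name means that its probes can match further transcripts or several transcripts of a gene, and both the brightest probe set of Kif2c and the one with the largest fall have such a mark.

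Cytokinesis splits the cell, and its 3 genes fell. Anln (anillin), a scaffold of the contractile ring, had 14.3 and 20.9 in KO M1, 154 and 253 in KO M2, and 191 and 202 in KO M0 and was 11.4 times lower in KO M1 than with media alone (log2 -3.51, SE 0.25, limma adjusted p = 0.00015). Racgap1, of centralspindlin, had 51.9 and 51.5 in KO M1, 199 and 285 in KO M2, and 294 and 302 in KO M0 (-2.53, SE 0.17, adjusted p = 0.00013). Ect2, the exchange factor that switches on RhoA at the furrow, had 12.7 and 14.8 in KO M1, 43.0 and 60.1 in KO M2, and 56.5 and 77.5 in KO M0 (-2.27). Anln and Racgap1 each had a dim probe set that was not called, 22.0 and 18.6 on the KO M1 arrays, against 24.9 and 26.1 on the KO M0 arrays for Anln. That of Racgap1 read 6.04 and 5.25 on the KO M1 arrays, against 4.74 and 5.29 on the KO M0 arrays.

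Chromosome structure closed the list, with 6 of 6 genes lower. Top2a, the topoisomerase that untangles sister chromatids, had 78.9 and 95.9 in KO M1, 449.7 and 676 in KO M2, and 602 and 659 in KO M0 (log2 change in KO M1 -2.86, SE 0.20, limma adjusted p = 0.00015). Mki67, which encodes the proliferation antigen Ki-67 of mitotic chromosomes, had 94.4 and 101 in KO M1, 477 and 765 in KO M2, and 572 and 655 in KO M0 (-2.65, SE 0.21, adjusted p = 0.00023). Neither overlapped between KO M1 and the other conditions. Top2a also had 2 probe sets that were not called, 34.1 and 30.2 on the KO M1 arrays, against 40.6 and 49.0 on the KO M0 arrays for the first. The other read 19.5 and 20.5 on the KO M1 arrays, against 21.4 and 19.5 on the KO M0 arrays. The condensin subunits fell less. Smc2, of the condensin core, had 117 and 116 in KO M1, 352 and 506 in KO M2, and 424 and 489.5 in KO M0 (-1.97), and Smc4, its partner, had 295 and 307 in KO M1, 506 and 632 in KO M2, and 583 and 596 in KO M0 (-0.97). Of the 5 probe sets of Smc2, 3 were lower in KO M1 and the others were not called. Ncapg of condensin I had 21.4 and 29.9 in KO M1, 41.0 and 62.3 in KO M2, and 79.2 and 72.3 in KO M0 (-1.58), and Ncaph had 136 and 128 in KO M1, 266 and 338 in KO M2, and 353 and 444 in KO M0 (-1.59). Ncapg did not pass without KO M0 mouse 1 (adjusted p = 0.052), nor Smc4 without KO M0 mouse 2 (adjusted p = 0.051).

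Of the 28 probe sets that were not called in KO M1 against KO M0, 26 were not the brightest of their gene, and 21 were dim on both KO M0 arrays. Among the 75 that fell, 6 were dim there. Every one of the 46 genes had at least 1 probe set that fell. The 14 genes with 1 probe set all fell at it, and of the 32 genes with several, 12 fell at all of them and 20 had both kinds. On the arrays of KO M1, 20 and 16 of the 46 genes were dim at the brightest probe set, against 2 and 0 in KO M2 and 1 and 0 in KO M0. A dim value has little room to fall further, so folds of such genes can be too small.

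**Figure D3:**
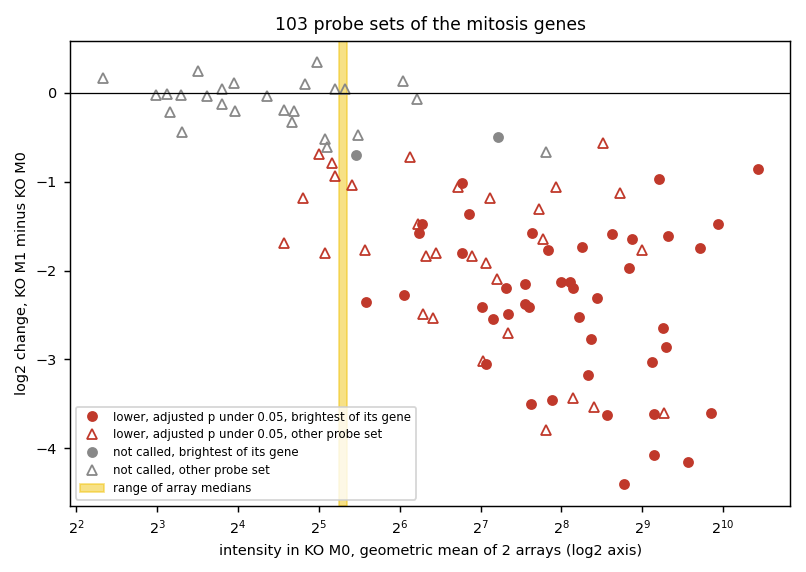
The plot shows the log2 change in KO M1 against KO M0 of the 103 probe sets of the mitosis genes over their KO M0 intensity (geometric mean of 2 arrays, log2 axis), with filled circles for the brightest probe set of a gene and open triangles for the others. The 75 probe sets that fell (red) lie mostly right of the shaded range of array medians, and the 28 not called (grey) mostly left of it or within it, near a change of 0.

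After IL-4 no gene of the set passed the test at its brightest probe set. In KO M2 against KO M0, 0 of the 46 genes passed in limma in either direction, where 3.06% of all genes were lower and 4.5% higher. At an unadjusted p under 0.05, 9 of the 46 were lower (8.24% of all genes). Of 103 probe sets 1 was lower (3.57% of all probe sets) and 0 were higher (3.61% of all), with 19 lower (10% of all) and 1 higher (9.68% of all) at an unadjusted p under 0.05. The median log2 change was -0.28, against -0.00 over all genes, and 42 of the 46 genes had a negative sign. Both KO M2 arrays lay under both KO M0 arrays in 23 genes, which was so for 24.6% of all genes. The 95% intervals of the 46 changes (limma, not adjusted for their number) reached from -1.34 (Birc5) to 0.59 (Melk). They lay wholly above -1, a 2-fold fall, in 39 genes and held 0 in 37. A small fall in KO M2 is thus within the intervals of most members.

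The probe set that passed was 1 of 5 of Smc2 (22.3 and 22.6 in KO M1, 41.1 and 51.7 in KO M2, and 83.3 and 77.3 in KO M0, a log2 change in KO M2 of -0.80, adjusted p = 0.012), while the brightest of that gene had a change of -0.11. The 6 genes with the largest changes in KO M2 were Ccnb2 (-0.69, SE 0.18, adjusted p = 0.058), Birc5 (-0.67, adjusted p = 0.25), Nuf2 (-0.60, adjusted p = 0.083), Cenpe (-0.58, adjusted p = 0.12), Ncapg (-0.58, adjusted p = 0.18) and Ccna2 (-0.52, adjusted p = 0.27). In each of these 6 genes both KO M2 arrays lay under both KO M0 arrays, by the intensities given above (24.6% of all genes). The 6 were picked by their change in the same values, so this adds no support. Without KO M2 mouse 2, 10 probe sets passed, and without KO M2 mouse 1 or either KO M0 array, 0. With the mouse as a replicate block 2 probe sets passed, and Ccnb2 was among the genes lower (adjusted p = 0.046).

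**Figure D4:**
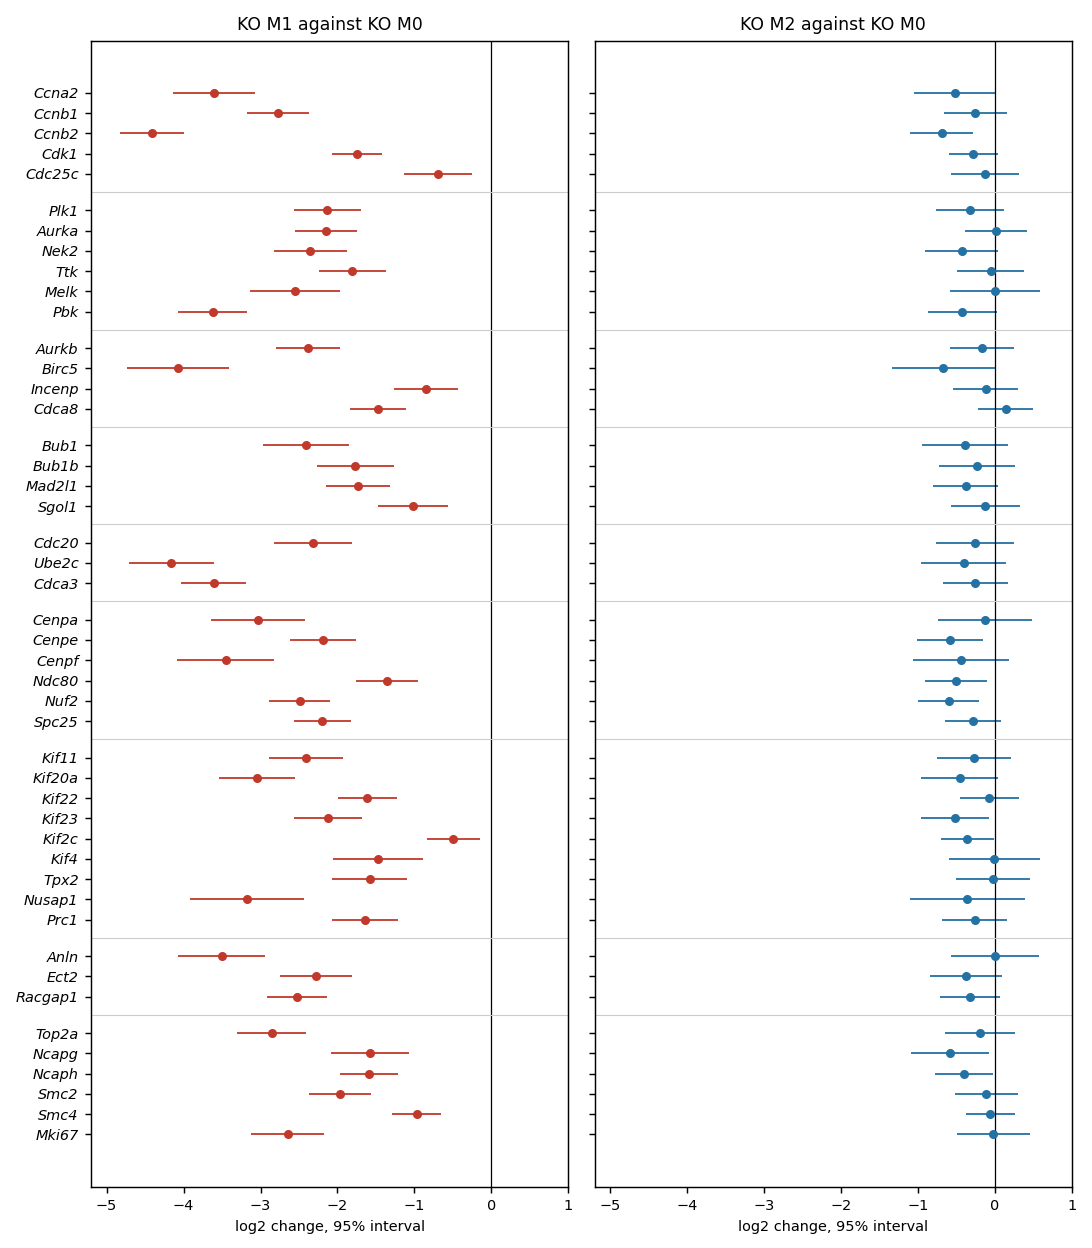
The plot shows the log2 change (points) and its 95% interval from limma (bars, not adjusted for the number of genes) of the 46 mitosis genes at the brightest probe set, for KO M1 against KO M0 on the left and KO M2 against KO M0 on the right. The left panel spans bounds from -4.82 (Ccnb2) to -0.15 (Kif2c), all below 0, and 37 of the 46 intervals in the right panel hold 0.

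The 2 arrays of KO M2, 1 per mouse, differed in the level of the set. On the KO M2 arrays 44 of the 46 genes were higher in mouse 2 than in mouse 1, with Bub1b and Cenpa the exceptions, at a median log2 difference of 0.53, while 44.9% of all genes were higher in mouse 2 (median -0.03). On the KO M1 arrays 32 of 46 were higher in mouse 2 (median 0.17) and on the KO M0 arrays 34 of 46 (median 0.11), against 53.1% and 48.9% of all genes. KO M2 was lower than KO M0 in 44 of 46 genes in mouse 1 (median -0.44) and in 31 of 46 in mouse 2 (median -0.09), where 47.7% and 50.6% of all genes were lower. In KO M1 against KO M0 the medians were -2.29 in mouse 1 and -2.19 in mouse 2. With 1 array per mouse and condition these differences have no test. Mouse, culture and array cannot be told apart in them.

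**Figure D5:**
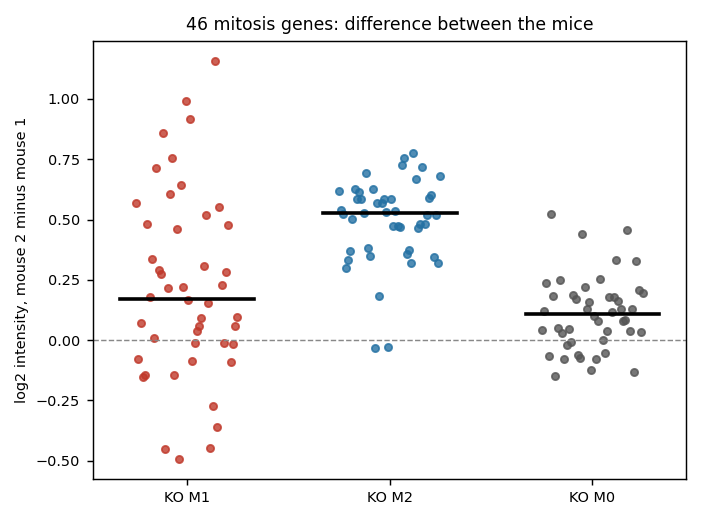
The plot shows the log2 intensity of mouse 2 minus that of mouse 1 for each of the 46 mitosis genes (points, 1 per gene, spread sideways for sight) in KO M1, KO M2 and KO M0, with a bar at the median (0.17, 0.53 and 0.11). In KO M2 all points but 2 lie above 0, and in KO M1 the spread is the widest, from -0.49 to 1.16.

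The set was also lower after LPS and IFN-γ than after IL-4. In KO M1 against KO M2, 44 of 46 genes were lower (9% of all genes) and 0 were higher (6.36% of all genes), with a median log2 change of -1.90 (0.06 over all genes). Both KO M1 arrays lay under both KO M2 arrays in 45 genes (23.8% of all genes), with Kif2c the exception. By probe set 71 of 103 were lower (7.63% of all) and 0 higher (5.31% of all). The changes reached -3.75 for Ube2c (adjusted p = 3.2e-05), -3.71 for Ccnb2 and -3.51 for Anln in limma. Cdc25c (-0.56, adjusted p = 0.1) and Kif2c (-0.14, adjusted p = 0.63) did not pass. The median was -1.77 in mouse 1 and -2.10 in mouse 2.

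Further genes of the cell cycle were read from lists of their own. For comparison with the counts of every list below, LPS and IFN-γ left 4.49% of all 20967 genes lower than media alone. Another 3.79% were higher. After IL-4 the shares over all genes were 3.06% lower and 4.5% higher. Of 57 other mitosis genes, 36 fell in KO M1 and 1 rose, at a median log2 change of -1.10. Cep55, a protein of the last step of abscission, had 21.9 and 20.6 in KO M1, 120.4 and 182 in KO M2, and 154 and 181 in KO M0 (-2.98 in KO M1, limma adjusted p = 0.00011). The 1 gene that was higher was Pttg1 (securin), the inhibitor of separase, with 5768 and 4183 in KO M1, 1591 and 1512 in KO M2, and 2947 and 2552 in KO M0. It was higher in KO M1 (0.84, adjusted p = 0.021) and lower in KO M2 (-0.82, adjusted p = 0.023). These values are from its brightest probe set, whose name carries _s, a mark of the kind explained above for Kif2c. In KO M2 Ncapg2, a subunit of condensin II, was also lower (299 and 276 in KO M1, 222 and 279 in KO M2, and 698 and 645 in KO M0, -1.43, adjusted p = 0.00077), and Mad1l1, the checkpoint partner of MAD2, was higher (0.64, adjusted p = 0.047).

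The S-phase and replication genes, which copy the DNA before mitosis, also fell in KO M1. In KO M1 against KO M0, 42 of 53 were lower and 0 higher, at a median of -1.23, and in KO M2 0 of 53 passed in limma (median -0.16). Rrm2, a subunit of ribonucleotide reductase, had 80.5 and 92.4 in KO M1, 338 and 616 in KO M2, and 601 and 579 in KO M0 (-2.77 in KO M1, adjusted p = 0.00039). Of 22 G1 cyclins, CDKs and CDK inhibitors, 8 were lower in KO M1 and 1 was higher (median -0.13). Ccnd1, the D-type cyclin of growth factor responses, fell (354 and 244 in KO M1, 1203 and 1285 in KO M2, and 2085 and 1910 in KO M0, -2.76), and Ccnd3, another D-type cyclin, was the 1 that rose (0.82, adjusted p = 0.0046). Myc, a growth regulator, moved in opposite directions, with 55.4 and 71.1 in KO M1, 632 and 844 in KO M2, and 249 and 241 in KO M0, a change in KO M1 of -1.97 and in KO M2 of 1.58 (adjusted p = 0.0012). In KO M2 Cdkn2b, a CDK4 and CDK6 inhibitor, was higher (1.37, adjusted p = 0.00092) and Cdkn2c, of that family, lower (-0.60, adjusted p = 0.038). Of 22 factors of cell cycle transcription 6 were lower in KO M1 and 0 higher (median -0.22), led by E2f7, an E2F repressor (-2.17, adjusted p = 0.00045). In KO M2 0 of those 22 passed. Given the shares over all genes, a count of 0 or 1 in a list of 22 does not set that list apart.

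The label of the cells was checked against markers, and other values that move with the conditions stand beside the fall. Csf1r, the M-CSF receptor, read 15020 and 15210 in KO M1, 14990 and 14270 in KO M2, and 14450 and 13940 in KO M0, and the 13 macrophage markers summed to 106300 and 108000 in KO M1, 90070 and 87040 in KO M2, and 103800 and 107000 in KO M0. Of those 13, Mrc1, a mannose receptor, was lower in KO M1 (-4.36 on the log2 scale, limma adjusted p = 3.1e-05) and Itgam (CD11b) higher, while in KO M2 5 were lower and 2 higher. Fcgr1, an Fc receptor, had 6687 and 4336 in KO M1, 474 and 327 in KO M2, and 4315 and 3783 in KO M0 (-3.36 in KO M2), and Cd14, the LPS co-receptor, also fell there (-1.57). Higher in KO M2 were Mrc1 (1.46) and Csf1, which encodes M-CSF itself (264 and 147 in KO M1, 1393 and 1577 in KO M2, and 345 and 304 in KO M0, 2.19, adjusted p = 0.0011). Of the 10 neutrophil and granulocyte progenitor markers 1 (S100a8) was higher in KO M1 than in KO M0, and their sums were 987 and 845 in KO M1, 680.2 and 503 in KO M2, and 741 and 651 in KO M0. Only 4 of the 10 were dim on every array, Mpo and Ctsg among them. The 11 erythroid and megakaryocyte markers summed to 1784 and 4106 in KO M1, 5769 and 4424 in KO M2, and 6191 and 5454 in KO M0, most of it Pf4, a gene that macrophages also express. Only 4 of the 11 were dim on every array, Hba-a1 among them. Among these 11, Ermap was higher in KO M1. Of the 15 B, T and NK cell markers 0 passed in KO M1 (sums 731 and 817, against 725 and 695 in KO M0) and Cd4 was lower in KO M2, and of the 10 fibroblast markers 1 (Dcn) was higher in KO M1. The 8 dendritic cell markers summed to 559.6 and 765 in KO M1, 9962 and 9688 in KO M2, and 1920 and 1468 in KO M0. Most of the sum was Itgax (CD11c) in KO M2 (8854 and 8404) and in KO M0 (1524 and 1092). Of these 8 markers Itgax was lower and Ccr7 higher in KO M1, and Itgax (2.74), Batf3 (2.71) and Zbtb46 (0.54) were higher in KO M2. The other 5 were not called in KO M2, and the median log2 change of the 8 there was 0.05. The log2 ratio of the 3′ to the 5′ probe sets of Gapdh, a sign of RNA quality, was 0.09 and 0.15 in KO M1, 0.20 and 0.11 in KO M2, and -0.08 and -0.07 in KO M0. The same ratio of Actb was 0.19 and 0.19 in KO M1, 0.32 and 0.23 in KO M2, and 0.15 and 0.16 in KO M0. The part of these values in the results was not tested.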

How the data were processed

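RNA of 6 cultures was hybridised to Affymetrix mouse genome arrays. RMA in GenePattern was used by the authors for normalization (version not given in the sources used here), and the deposited values are linear intensity values per probe set. A further KO sample was removed by the authors for RNA quality. The deposited table also holds the authors' mean, fold (ratio), p-value and coefficient of variation per condition or comparison, which were not used. Of 45101 probe sets 64 controls were left out. Intensities were put on the log2 scale, and all 6 arrays entered 1 model (limma 3.58.1 under R 4.3.3, 3 residual and 5.49 prior degrees of freedom), with two-sided p-values adjusted by Benjamini-Hochberg over 45037 probe sets and called under 0.05. With 2 arrays a condition, their number limits the precision.

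The members, lists and alternatives were chosen with earlier results of these data known. Values per array are given for the members with the largest changes in KO M1 in each role, those not called or whose probe sets disagreed, and the 6 with the largest changes in KO M2, and then for the rest. Genes of the other lists were named by the largest change past the test, or because they were 1 of few called, and some that this names are not reported here. The intervals, the counts within a mouse the counts of arrays that do not overlap and the counts at an unadjusted p were added after the data had been seen.

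The series' design text gives 2 mice with replicates of a condition from different mice, and the titles number the arrays. Same-numbered arrays were read as paired by mouse, which the titles do not state in words. Their deviations from the group means correlated at -0.162 (KO M1 and KO M0), 0.209 (KO M2 and KO M0) and -0.215 (KO M1 and KO M2) over all probe sets. The fit was tested on simulated data under 2 models of the noise. With variances drawn from limma's own prior, a model that meets the fit's assumptions by construction, the share of false calls stayed under the threshold. With the shrunken variance of each probe set it was above it, so the adjusted p-values may be too small to the extent that the arrays are like that model.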

Additional observations from a re-analysis of the deposited data

How the results depend on the processing

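With 2 arrays a condition, the fall in KO M1 kept its direction under every alternative tried, while the small changes in KO M2 did not keep their count. Leaving out each array in turn gave 59 to 76 probe sets lower in KO M1 against KO M0 (75 with all arrays), 0 to 10 lower in KO M2 against KO M0 (1 with all) and 59 to 72 lower in KO M1 than in KO M2 (71 with all). The median log2 changes ranged over -2.38 to -2.14, -0.52 to -0.07 and -2.14 to -1.65. With the mouse as a replicate block, the counts lower were 73, 2 and 69. The count in KO M2 was also 2 with only the 2 conditions compared in the fit and with a repeated quantile normalization, and 0 at a fold of at least 2. The methods' t-test (unadjusted, with a fold of at least 2) gave 65 lower in KO M1 against KO M0, 0 in KO M2 and 31 in KO M1 against KO M2, and after Benjamini-Hochberg 0, 0 and 0, where limma without an adjustment gave 68, 1 and 60 with that fold and 82, 19 and 75 with none. Among the 63 probe sets whose names carry no _a, _s or _x, 41, 0 and 39 were lower, at a median of -2.15 in KO M1 over the 25 genes whose brightest probe set is one of them. With the mean of all probe sets of a gene in place of the brightest, the medians were -1.55 in KO M1 and -1.35 in KO M1 against KO M2. Apart from the members named beside their values, no gene called in KO M1 against KO M0 lost its call when an array was left out. The alternative without _a, _s or _x holds fewer probe sets, and the cause of the other shifts was not tested.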
